A study of Mus musculus with 12 samples.

Results

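Sgms2, Sox9, Arid5b and Gm13889 are 4 mouse genes whose reads were higher in contracted than in uncontracted gastrocnemius, the large calf muscle, and whose part in contracting muscle is little described. They were picked on that difference from the 47643 genes of the deposited count table, so their contraction values below are a description and carry no test. The study took muscle from both legs of 6 female C57BL/6J mice aged 11 weeks. In each animal the right leg had contracted and the left had not, so side and contraction cannot be told apart. The control and the c-myc over-expression genotype each gave 3 animals, which makes 12 libraries in 4 groups of 3. The means of over-expressing Myc and the interval between contraction and sampling are not given in the sources used here.

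The genes belong to separate parts of cell biology. Sgms2 encodes sphingomyelin synthase 2, a membrane enzyme that moves a phosphocholine head from phosphatidylcholine onto ceramide and so makes sphingomyelin and diacylglycerol. Sox9 encodes an HMG-box transcription factor best known for directing cartilage formation. Arid5b encodes a DNA-binding protein with an AT-rich interaction domain, known as a partner of the histone demethylase PHF2. Gm13889 is annotated as protein-coding and carries a provisional gene name.

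In the GENCODE M21 annotation of mm10, Sgms2 (ENSMUSG00000050931) lies at chr3:131318985-131491411 on the minus strand, with 6 exons and a coding sequence for 365 residues. Sox9 (ENSMUSG00000000567) lies at chr11:112782224-112787760 on the plus strand, with 3 exons and 507 residues. Arid5b (ENSMUSG00000019947) lies at chr10:68092520-68278740 on the minus strand, with 10 exons and 1188 residues. Gm13889 (ENSMUSG00000087006) is a single exon at chr2:93955810-93957201 on the minus strand, with a predicted protein of 246 residues. The genes differed widely in size. Sgms2 spans 172427 bases against a median of 23382 over the 6520 tested genes with a gene model, and Arid5b is longer than 95.5% of them, while Sox9 is longer than 13.1% and Gm13889 than 0.936%. AUUUA, a pentamer found in many short-lived mRNAs, occurs 9 times in the 3' untranslated region of Sgms2, 6 times in that of Sox9, 8 times in that of Arid5b and 3 times in that of Gm13889. Per kilobase this is 2.18, 2.67, 2.01 and 5.25, against a median of 1.24 over 6250 genes. The density of Gm13889 stood at percentile 95.9 of those genes, and the others stood at percentiles 70.4, 78.3 and 67.0 in the same order.

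Promoter sequence was at hand for 2 of the 4 genes, with 6 start sites of Sgms2 and 1 of Arid5b (RefSeq, GRCm38.p6). The 4 windows below are shown because they hold letters of motifs bound by factors of stimulus-responsive transcription, or, for Arid5b, because they lack most of them. Each runs 5' to 3' on the minus strand and leaves out bases of annotated exons. The Sgms2 windows shown lie within the annotated span of the gene, so transcripts from start sites further upstream run through them as intron. Capitals mark matches to the AP-1 motif TGANTCA, the E-box CACGTG bound by MYC with MAX, or the TATA box TATAAA on either strand.
Sgms2 chr3:131490231-131490407: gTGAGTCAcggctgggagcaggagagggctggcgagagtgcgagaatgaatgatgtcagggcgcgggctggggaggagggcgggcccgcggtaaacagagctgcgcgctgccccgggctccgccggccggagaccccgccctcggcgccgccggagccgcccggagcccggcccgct
Sgms2 chr3:131490661-131490910: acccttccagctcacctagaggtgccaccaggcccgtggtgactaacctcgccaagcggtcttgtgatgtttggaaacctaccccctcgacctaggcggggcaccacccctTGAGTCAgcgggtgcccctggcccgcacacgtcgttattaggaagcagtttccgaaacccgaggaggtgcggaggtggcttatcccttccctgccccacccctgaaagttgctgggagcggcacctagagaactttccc
Sgms2 chr3:131489043-131489292: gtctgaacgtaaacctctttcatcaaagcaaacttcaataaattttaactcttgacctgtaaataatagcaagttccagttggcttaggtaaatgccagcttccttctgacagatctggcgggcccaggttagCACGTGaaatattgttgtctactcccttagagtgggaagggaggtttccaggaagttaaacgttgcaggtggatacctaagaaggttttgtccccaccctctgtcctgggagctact
Arid5b chr10:68278741-68278976: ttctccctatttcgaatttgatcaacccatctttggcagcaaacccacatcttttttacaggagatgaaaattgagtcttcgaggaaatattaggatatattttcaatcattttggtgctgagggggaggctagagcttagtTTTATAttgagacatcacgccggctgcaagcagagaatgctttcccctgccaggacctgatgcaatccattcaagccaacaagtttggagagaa

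In the first Sgms2 window the AP-1 letters lie at -176 to -170 from the start site, and in the second at -139 to -133. The third holds 1 E-box at -117 to -112. The Arid5b window has TTTATA, the TATA box read on the other strand, at -108 to -103. Over the 250 bases before the start, 9 motifs were searched on both strands in 32851 mouse windows. AP-1 letters occurred in 6.75% of those windows and in 2 of the 7 windows of these genes, and the E-box in 6.02% and in 1 of the 7. The heat shock element GAANNTTC (6.69% of all windows) was in 1 of the 7, the NFAT core TGGAAA (18.6%) in 2, and the TATA box (12.4%) in 1. None of the 7 windows held the cAMP response element TGACGTCA (1.55%), its core TGACG (17.8%, which the full element contains), the EGR motif GCGTGGGCG (0.536%) or the CArG box (1.47%). A match is a run of letters and not a measured binding site.

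The libraries held 1371732 to 1643216 reads, so that 1 read was worth 0.609 to 0.729 CPM (reads scaled to a library total of 1000000), and 27.1% to 35.2% of the reads were mitochondrial. Myc, the targeted gene, was read 0, 1 and 0 times in the uncontracted control legs of animals 1, 2 and 3, and 11, 9 and 9 times in the uncontracted Myc legs. In the contracted legs it was read 1, 10 and 59 times in the control libraries and 32, 0 and 2 times in the Myc libraries. Contracted libraries 2 and 3 of each genotype thus go against their labels in Myc reads, in that the control libraries held more than the Myc libraries. Whether these 4 libraries belong to the animals they are labelled with was not tested, and the fitted differences and pooled ratios by genotype are given with and without them. Below, "control" and "Myc" are the labels.

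Sgms2 was nearly unread in uncontracted muscle and present in every contracted library. The uncontracted control libraries 1, 2 and 3 held 0, 1 and 1 reads and the contracted ones 11, 13 and 16, which is 7.40, 8.57 and 10.8 CPM. The uncontracted Myc libraries held 3, 1 and 2 reads and the contracted ones 10, 28 and 25, which is 6.98, 17.0 and 15.7 CPM. The lowest contracted library was 3.67 times the highest uncontracted one, so the legs did not overlap, but all 6 uncontracted legs together gave only 8 reads against 103. Every uncontracted Sgms2 level is therefore at or under the floor of 3 reads, which was 1.83 to 2.19 CPM by library. The pooled ratio of contracted to uncontracted CPM was 21.4 in control animals (exact 95% interval 5.54 to 183) and 10.04 in Myc animals (4.36 to 28.4). Without the control library that had no read the control ratio was 14.1. Intervals and floors here cover counting error only.

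Sox9 was low but read in all uncontracted legs. Those of the control animals held 9, 9 and 8 reads (5.50, 5.56 and 5.21 CPM), and their contracted legs 78, 85 and 93 (52.5, 56.0 and 62.9 CPM). The uncontracted Myc legs held 5, 5 and 13 reads (3.18, 3.30 and 9.48 CPM), and the contracted ones 44, 158 and 139 (30.7, 96.2 and 87.4 CPM). The control animals were close to one another in both legs, at 5.42 ± 0.189 and 57.1 ± 5.30 CPM (SD, n = 3), whereas the Myc animals spread more widely, at 5.32 ± 3.60 and 71.4 ± 35.5 CPM. The lowest contracted library stood at 3.24 times the highest uncontracted one. Pooled ratios were 10.5 in control animals (7.02 to 16.4) and 14.2 in Myc animals (9.29 to 22.7), the latter 22.6 without the third uncontracted Myc library, which held 13 of the 23 reads.

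Arid5b stood at a like ratio with a wider spread in contracted muscle. Uncontracted control legs held 6, 11 and 12 reads (3.67, 6.80 and 7.81 CPM), and contracted ones 53, 81 and 143 (35.7, 53.4 and 96.7 CPM). Uncontracted Myc legs held 8, 9 and 6 reads (5.08, 5.94 and 4.37 CPM), and contracted ones 32, 146 and 105 (22.3, 88.9 and 66.0 CPM). The lowest contracted library was 2.86 times the highest uncontracted one. The highest contracted library was 4.33 times the lowest, the widest of the 4 genes, against 2.44 for Sgms2, 3.13 for Sox9 and 3.56 for Gm13889. Pooled ratios were 10.2 in control animals (6.95 to 15.5) and 11.8 in Myc animals (7.68 to 18.9).

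Gm13889 was the only one of the 4 with a single uncontracted library well above the rest. Uncontracted control legs held 3, 7 and 6 reads (1.83, 4.32 and 3.91 CPM), and contracted ones 83, 89 and 56 (55.8, 58.7 and 37.9 CPM). Uncontracted Myc legs held 19, 3 and 4 reads (12.1, 1.98 and 2.92 CPM), and contracted ones 37, 151 and 110 (25.8, 91.9 and 69.2 CPM). The first Myc animal had the highest uncontracted and the lowest contracted level, and its contracted leg was 2.14 times its uncontracted one. This is also the smallest gap between the legs over all libraries. Pooled ratios were 15.2 in control animals (9.18 to 27.1) and 11.0 in Myc animals (7.33 to 17.1), the latter 26.3 without the uncontracted library of that animal.

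**Figure D1:**
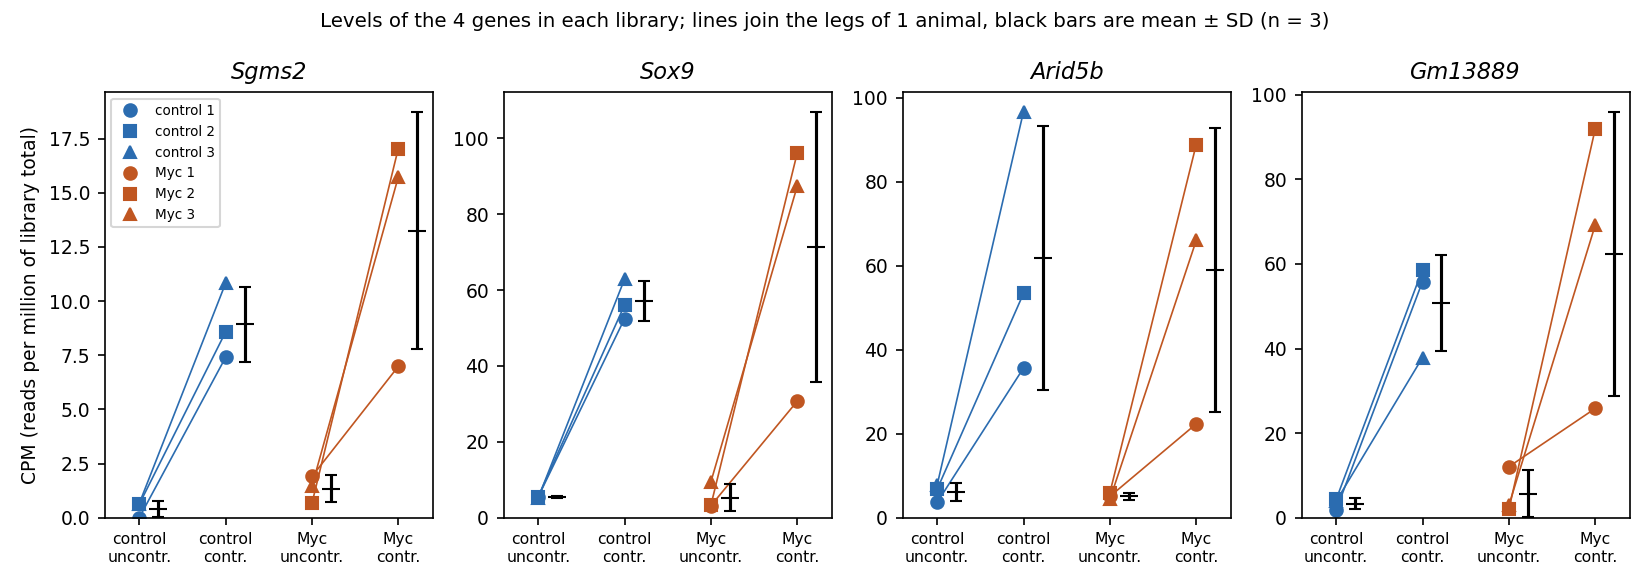
Level in CPM (linear axis from 0, a separate scale per gene) in each of the 12 libraries, by leg and genotype label, with lines joining the legs of an animal and black bars for the mean ± SD (n = 3). For each gene the 6 contracted libraries lie above the 6 uncontracted ones, with the narrowest gap in Gm13889, where they are 2.14 times apart.

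All 4 genes thus had every contracted library above every uncontracted one, a pattern shared by 205 of the 6676 genes that passed the low-count filter (3.07%). This follows from how they were chosen and is read no further. In the fit over all libraries they stood at a log2 contraction difference, averaged over genotypes, of 3.68 ± 0.42 (SE) for Sgms2, 3.54 ± 0.28 for Sox9, 3.39 ± 0.33 for Arid5b and 3.63 ± 0.35 for Gm13889. By size these were the 14th, 17th, 24th and 15th of 6676, and neighbouring values lie within their errors. Over all tested genes 381 were higher in contracted legs at an adjusted p under 0.05 (5.71%), 159 in control animals alone (2.38%) and 230 in Myc animals alone (3.45%). These are given as the background only, since the 4 genes were chosen on this contrast. Their log2 differences were 4.14, 3.34, 3.29 and 3.87 in control and 3.21, 3.75, 3.49 and 3.39 in Myc animals, in the order Sgms2, Sox9, Arid5b, Gm13889. Without the 4 contracted libraries that go against their labels they were 3.93, 3.27, 2.56 and 4.05 in control and 2.31, 2.55, 2.10 and 2.14 in Myc animals. The pooled ratios were then 17.7, 9.67, 5.89 and 16.7 in control and 5.19, 5.96, 4.33 and 4.43 in Myc animals, in the same order. These values rest on 1 contracted library a genotype. That of the Myc animals, contracted Myc 1, was the lowest contracted library for all 4 genes, so the lower Myc values are not read as a genotype difference. In whole muscle, more cells that express a gene and more RNA per cell cannot be told apart.

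By the labels, the contracted leg was higher in 6 of 6 animals for each gene. This follows from every contracted library lying above every uncontracted one and is no separate result. The values of animals 2 and 3 of both genotypes pair legs through the 4 contracted libraries whose Myc reads go against their labels, so they depend on those labels. For Sox9 the ratio of the legs was 9.54, 10.1 and 12.1 in control animals 1, 2 and 3 and 9.68, 29.1 and 9.22 in the Myc animals. The second Myc animal was highest there, with an interval of 12.2 to 90.9 since its uncontracted leg had 5 reads. That interval overlaps those of the other animals. For Arid5b the ratios were 9.72, 7.86 and 12.4, and 4.40, 14.9 and 15.1. The first Myc animal was lowest, with an interval of 1.99 to 11.0. For Gm13889 they were 30.4, 13.6 and 9.70, and 2.14, 46.4 and 23.7. That of the first Myc animal had an interval of 1.20 to 3.94. For Sgms2 the ratio was at least 4.03 in control animal 1, whose uncontracted leg had no read and was set to the floor of 3, then 13.9 and 16.6, and 3.67, 25.8 and 10.8 in Myc animals. The interval in the first Myc animal, 0.944 to 20.7, takes in a ratio of 1.

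**Figure D2:**
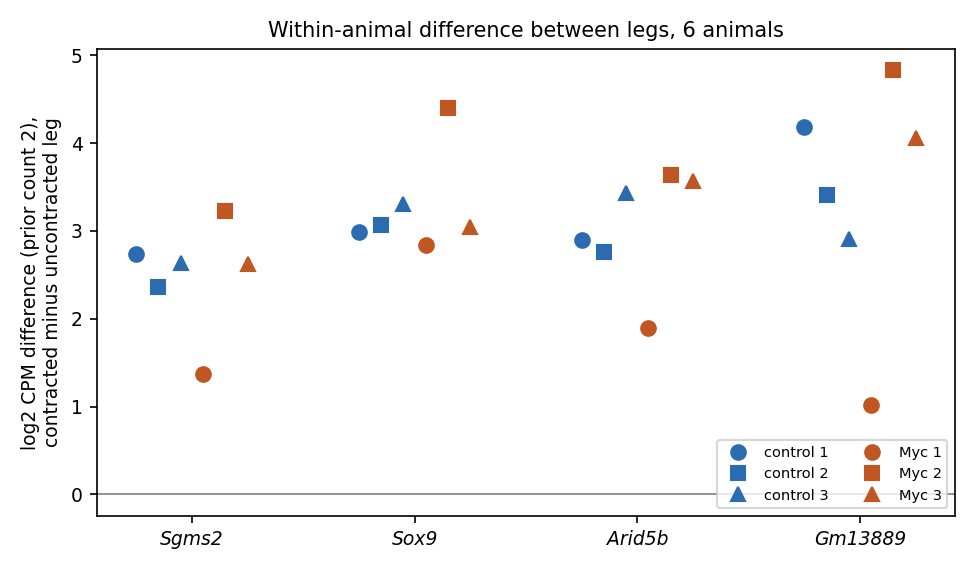
Log2 CPM of the contracted leg minus that of the uncontracted leg (prior count 2), 1 point per animal, colour for genotype and symbol for animal number. All points lie above 0, since every contracted library lies above every uncontracted one. The lowest of each gene is the first Myc animal, at 1.37 for Sgms2, 2.84 for Sox9, 1.89 for Arid5b and 1.02 for Gm13889.

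The contracted libraries stood in a similar order for all 4 genes. The first Myc library was lowest for each, and the second Myc library highest for Sgms2, Sox9 and Gm13889, while the third control library was highest for Arid5b. From highest to lowest the mean ranks were 1.25 for Myc 2, 2.25 for Myc 3, 3 for control 3, 3.75 for control 2, 4.75 for control 1 and 6 for Myc 1. Many other genes shared the ends of this order. Among the other 377 genes higher with contraction, Myc 1 was the lowest contracted library in 186 (49.3%) and Myc 2 the highest in 141 (37.4%). The mitochondrial share moved with it in part, since of the contracted libraries Myc 1 had the largest share (34.1%) and Myc 3 and Myc 2 the smallest (27.5% and 28.2%). Control 2 went the other way, with a share of 33.9% but a higher level by mean rank than control 1, at 30.9%. The part of the mitochondrial share in these levels was not tested.

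The Myc comparisons were not used to choose the genes and could be tested. No gene of the 6676 differed between Myc and control animals at an adjusted p under 0.05 in edgeR's quasi-likelihood test, either in uncontracted legs (0% called, 421 genes at an unadjusted p under 0.05) or in contracted legs (0%, 205 genes). DESeq2 called 1 gene and 0 genes. In uncontracted legs the log2 difference, Myc minus control, was 1.49 ± 0.99 for Sgms2, with an interval of -0.58 to 3.55 and an adjusted p of 0.842. The Myc libraries held 6 reads there against 2 in the control libraries, a ratio of 3.22 with an exact interval of 0.576 to 32.6. Myc library 2 and control libraries 2 and 3 held 1 read each, so their order in CPM rests on library totals alone. Sox9 differed by -0.10 ± 0.60 (-1.34 to 1.15, adjusted p = 0.990) and Arid5b by -0.26 ± 0.68 (-1.68 to 1.16, adjusted p = 0.970). Gm13889 differed by 0.75 ± 0.75 (-0.82 to 2.32, adjusted p = 0.937), and without the first uncontracted Myc library this turned to -0.47. The intervals leave room for differences above 2-fold either way for Sox9 and Arid5b, so these legs do not show that the genes were alike.

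In contracted legs the intervals were narrower. Sgms2 differed by 0.56 ± 0.35 on the log2 scale (-0.18 to 1.29), Sox9 by 0.31 ± 0.28 (-0.27 to 0.88), Arid5b by -0.07 ± 0.33 (-0.74 to 0.61) and Gm13889 by 0.28 ± 0.33 (-0.41 to 0.96), each with an adjusted p of 0.999. The groups overlapped for all 4 genes. For Sgms2 the means were 8.93 ± 1.74 CPM in control and 13.2 ± 5.46 CPM in Myc animals (SD, n = 3 each), and for Gm13889 50.8 ± 11.3 and 62.3 ± 33.6 CPM. Without the 4 contracted libraries whose Myc reads go against their labels the contracted legs left 1 library a genotype, assumed to vary like the uncontracted groups, which alone then give the spread. The differences turned to -0.14 for Sgms2, -0.83 for Sox9 and -1.17 for Gm13889, while Arid5b stood at -0.73 (adjusted p 0.983, 0.879, 0.879 and 0.888 in that order, from edgeR). These values compare 1 library with 1 library and carry no direction of their own.

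Whether contraction differed by genotype was tested as an interaction, which no gene passed (0% called, 331 genes at an unadjusted p under 0.05, 0 by DESeq2). The log2 contraction difference of Myc animals minus that of control animals was -0.93 ± 1.01 for Sgms2 (-3.03 to 1.17, adjusted p = 0.970) and 0.40 ± 0.66 for Sox9 (-0.98 to 1.78, adjusted p = 0.979). It was 0.20 ± 0.75 for Arid5b (-1.37 to 1.76, adjusted p = 0.993) and -0.47 ± 0.82 for Gm13889 (-2.17 to 1.22, adjusted p = 0.980). Without the 4 libraries the values were -1.62, -0.73, -0.46 and -1.91 in the same order, so those of Sox9 and Arid5b turned. They rest on 1 contracted library a genotype and carry no direction of their own. Without the first uncontracted Myc library that of Gm13889 turned to 0.74. Every interval of the fit to all libraries took in 0 and reached past 1 on the log2 scale.

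**Figure D3:**
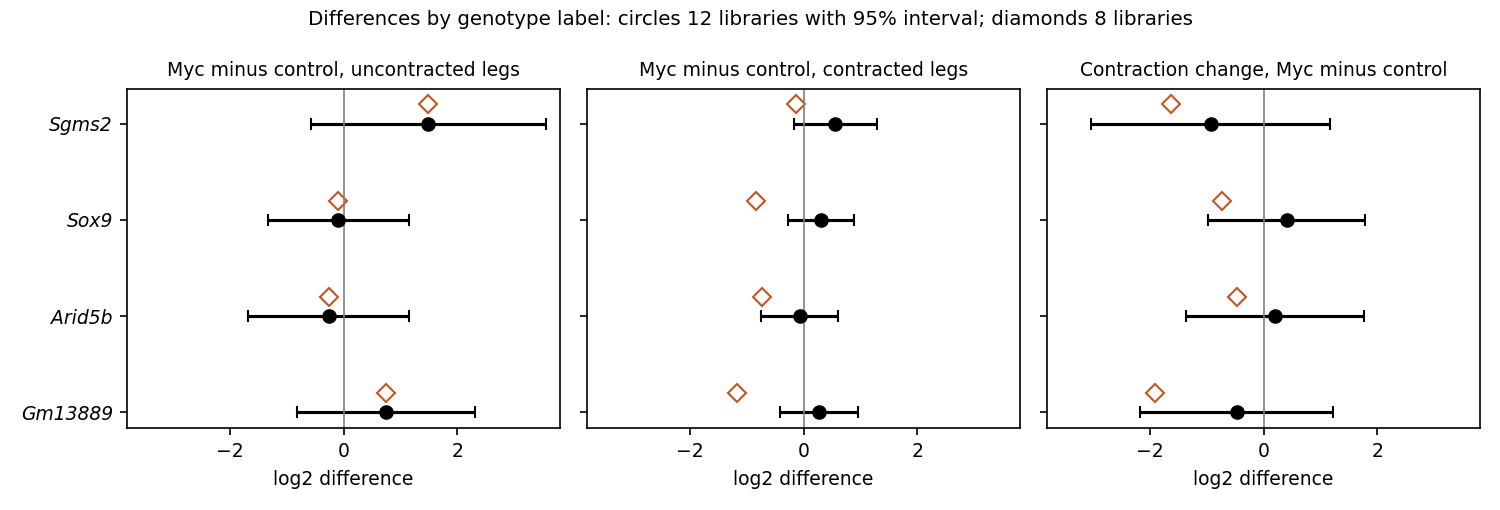
Log2 differences between Myc and control animals for the 4 genes in uncontracted legs, in contracted legs and as the interaction, as black points with 95% intervals from edgeR, and as open diamonds without the 4 contracted libraries. Every interval takes in 0, and in contracted legs the diamonds lie below 0 for all 4 genes, from -0.14 to -1.17.

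The genes whose pattern over the 12 libraries was closest to each were found by the root mean square difference of centred log2 CPM among 6535 genes. Closest to Sgms2 were Flnc, the actin cross-linker filamin C (0.314), Tnfrsf12a, the receptor for TWEAK (0.337), and Slc38a2, an amino acid transporter (0.351). The prior count of 2 in log2 CPM shrinks the leg difference of a gene near 0 reads. Sgms2 held 0 to 3 uncontracted reads. Its mean log2 CPM was 1.07 in uncontracted and 3.56 in contracted legs, a smaller step than the fitted 3.68. Flnc held 58 to 104 reads in uncontracted and 244 to 583 in contracted libraries. How far the nearness of Sgms2 to any gene rests on the prior count was not tested. Closest to Sox9 were Srxn1, sulfiredoxin, which repairs oxidised peroxiredoxins (0.267), Midn (0.388) and the deubiquitinase Otud1 (0.388). For Srxn1 the uncontracted libraries held 18 to 52 reads and the contracted ones 192 to 567, with Myc 1 lowest and Myc 2 highest among the contracted ones as for Sox9. Closest to Arid5b were the heat shock protein gene Hspa1a (0.365), Tnfrsf12a (0.411) and the nuclear receptor gene Nr4a3 (0.416). Hspa1a has the near-identical copy Hspa1b, so its counts are uncertain. Closest to Gm13889 were Socs3, an inhibitor of cytokine signalling (0.433), and the transcription factor genes Klf6 (0.539) and Egr1 (0.540), all farther off than the closest genes of the others. None of the 4 genes was among the 3 nearest of another. To Gm13889, Sgms2 was the 4th nearest (0.639), Arid5b the 9th (0.681) and Sox9 the 12th (0.697), while to Sgms2, Gm13889 was the 56th. Arid5b was the 14th nearest to Sox9 (0.505) and Sox9 the 18th nearest to Arid5b. The points of such a pattern share animals and libraries, and the difference between legs makes up most of it.

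**Figure D4:**
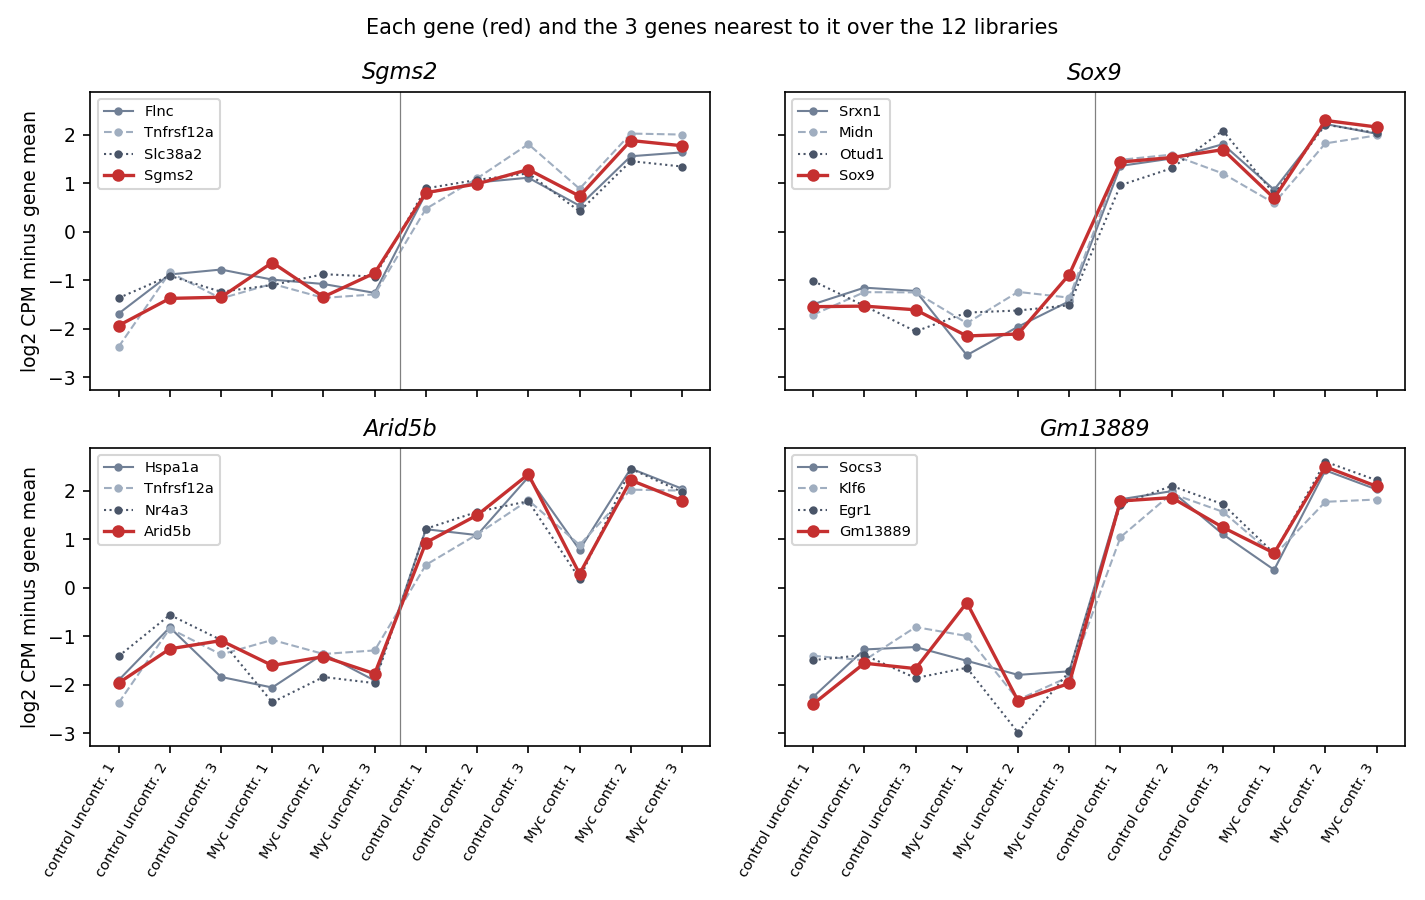
Log2 CPM minus the gene's mean over the 12 libraries, in red for each of the 4 genes and in grey for the 3 genes of the most like pattern, with uncontracted libraries left of the vertical line. Srxn1 follows Sox9 most closely (0.267 root mean square difference) and Socs3 follows Gm13889 less closely (0.433).

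The remaining genes of sphingolipid metabolism mostly did not pass the contraction test. Of 48 others matched in the table, 20 passed the low-count filter, and of those 2 were higher in contracted legs, 0 lower and 18 did not pass. The share of all tested genes that were higher was 5.71%, so 2 of 20 is near the background. The median log2 difference was 0.17, against -0.00326 over all tested genes. Sgms1, the paralogue that makes sphingomyelin in the Golgi, was higher by 0.84 ± 0.17 (edgeR adjusted p = 0.00234). It was read 31, 20 and 23 times in uncontracted and 40, 53 and 42 times in contracted control legs, and 31, 22 and 26 against 34, 63 and 46 times in the Myc animals. At 12.4 to 19.7 against 23.7 to 38.3 CPM its legs did not overlap, and its reads were not near 0 at rest as those of Sgms2 were. Sphk1, which phosphorylates sphingosine, had 0, 0 and 1 reads in uncontracted and 13, 11 and 3 in contracted control legs. In the Myc animals it had 0, 0 and 0 against 13, 20 and 26. It passed the low-count filter only through contracted libraries, so it could hardly have come out lower, and its call as higher is read no further. Its pooled ratio was 28.9 in control animals (4.76 to 1182), which rests on 1 uncontracted read. With uncontracted reads set to at least 3, leaving out single libraries of the control animals gave 6.34 to 12.8. In Myc animals, where the uncontracted group had no read, it was at least 18.8 with that group set to 3 reads, or 12.2 without the first uncontracted Myc library. Without the 4 libraries, 1 of the list was higher (Sphk1), Sgms1 was at 0.62 with an adjusted p of 0.399, and the median was 0.0161. Without the first contracted Myc library 4 were higher, and without any other single library 2 or 3.

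Most other SOX and cartilage genes had few reads or none. Of 36 others matched, 15 had no reads and 4 passed the filter, none of which passed the contraction test (median -0.0165). Sox6, a SOX factor known for repressing slow-fibre genes and for its part in cartilage, was read in every library, with 987 reads in uncontracted and 924 in contracted legs and a log2 difference of -0.10 ± 0.09 (edgeR adjusted p = 0.616). Sox4 had 126 and 191 reads and was at 0.59 ± 0.30 (adjusted p = 0.281). The matrix genes Comp, with 161 and 165 reads, and Col11a2, with 123 and 114, were at 0.03 ± 0.19 and -0.06 ± 0.28 (adjusted p = 0.959 and 0.936). Of the cartilage markers, Acan, Matn1, Hapln1 and Cnmd had no read in any library, while Col2a1 had 3 reads in uncontracted and 6 in contracted legs and Col9a1 had 1 and 2. The summed cartilage markers were 0 to 1.22 CPM in uncontracted and 0 to 1.83 CPM in contracted libraries, beside 597 Sox9 reads in the contracted legs. Of the 5 tested tendon markers 1 was higher, Thbs4 by 0.67, and their sum was 210 to 285 against 228 to 314 CPM.

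Among the 12 tested of 17 other ARID-domain and PHF demethylase genes matched, 3 were higher in contracted legs, 0 lower and 9 did not pass, where 5.71% of all tested genes were higher. The median was 0.56, against -0.00326 over all tested genes. Arid5a, the closest relative of Arid5b, an RNA- and DNA-binding protein, was higher by 1.37 ± 0.27 (edgeR adjusted p = 0.00204), with 44 reads in uncontracted and 115 in contracted legs. Jarid2, a component of Polycomb repressive complex 2, was higher by 1.22 ± 0.20 (adjusted p = 0.000222), with 132 against 312 reads. Arid2, a subunit of the PBAF chromatin remodeller, was higher by 0.94 ± 0.26 (adjusted p = 0.0283), but not with the animal as a block (adjusted p = 0.0663) nor by DESeq2 (0.112). Arid5a and Arid2 passed the low-count filter by way of their contracted libraries, which favours a call as higher. Phf2, the demethylase that pairs with Arid5b protein, was at -0.14 ± 0.21 (adjusted p = 0.782), with 183 against 168 reads. Without the 4 libraries none of 13 passed, with Arid5a at 1.14, Arid2 at 0.95 and Jarid2 at 0.97 (adjusted p 0.298, 0.532 and 0.103) and a median of 0.0366, and without the first contracted control library 5 did. Leaving out other single libraries gave 2 or 3.

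Stimulus-responsive genes, the class that contains several of the nearest patterns, were mostly higher. Of 25 tested, 17 were higher with contraction, 0 lower and 8 did not pass, with a median of 1.58 against the same background of 5.71% and -0.00326. Among those higher, Fosb, Csrnp1, Atf3, Fos, Maff, Junb and Nr4a3 held 6, 8, 16, 16, 20, 23 and 46 reads over all uncontracted legs. These passed the low-count filter by way of their contracted libraries, which favours a call as higher. The list was drawn up with earlier results of these data in view, so it is no independent support. The 6 with the smallest p were Egr1, higher by 3.95 ± 0.30, Klf6 by 3.11 ± 0.25, Btg2 by 2.67, Atf3 by 5.07, Nr4a3 by 3.50 and Jund by 1.08. In the Myc comparisons and in the interaction none of the tested genes of these lists passed.

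**Figure D5:**
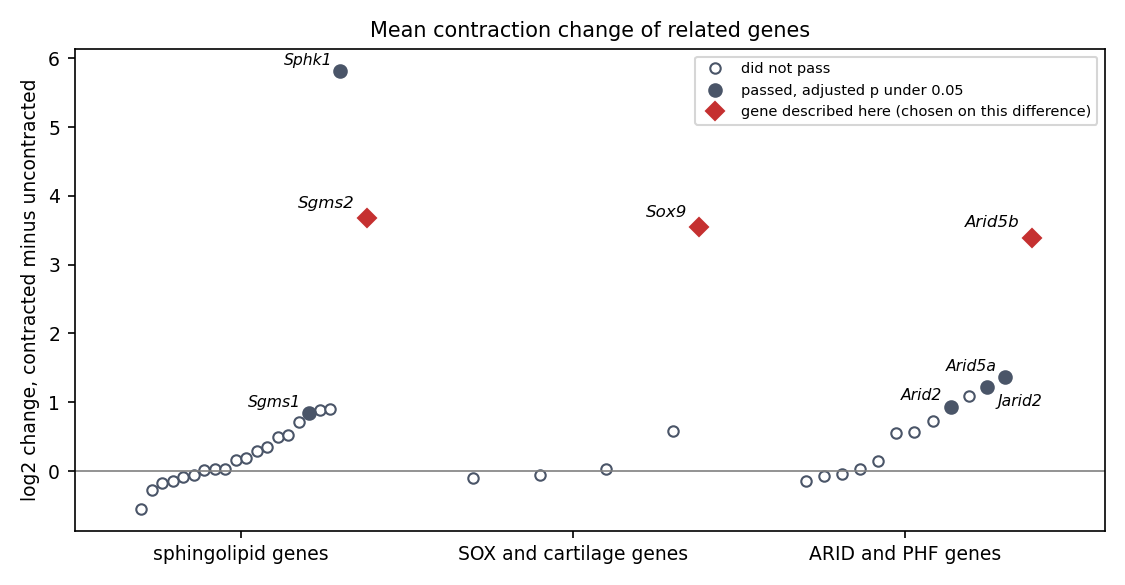
Log2 contraction difference, averaged over genotypes, of the tested sphingolipid, SOX and ARID genes, filled where they passed, with Sgms2, Sox9 and Arid5b as red diamonds, which were chosen on this difference. The medians of the 3 lists are 0.17, -0.0165 and 0.56, and the fitted value of Sphk1 depends on the prior count because its uncontracted legs held 1 read.

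Markers of the cell types in muscle moved in part with the contracted legs. Summed fibre markers were 85154 to 104314 CPM in uncontracted and 81270 to 98892 CPM in contracted libraries, and none passed. The endothelial (144 to 192 against 130 to 169 CPM), Schwann cell (69.3 to 123 against 60.1 to 122) and fibroblast markers (647 to 1411 against 645 to 1344) had none that passed either. Both tested neutrophil markers were higher, S100a8 with 6 against 216 reads and S100a9 with 1 against 88. They passed the low-count filter only through contracted libraries, so they could hardly have come out lower. Retnlg (2 against 13 reads) and Mpo (1 against 8) had too few reads to be tested, and Ly6g and Cxcr2 had no read. Summed neutrophil markers ran from 0 to 3.91 CPM in uncontracted and from 4.87 to 72.4 CPM in contracted libraries. Of 3 tested macrophage markers Cd68 (27 against 90 reads) was higher by 1.70, and it too reached the test through contracted libraries. Csf1r and C1qa fell by 0.54 and 0.60 on the log2 scale. The summed macrophage markers were 70.5 to 121 against 58.0 to 82.1 CPM. Acta2 of smooth muscle fell by 0.55 (1 of 5 tested, 157 to 223 against 133 to 171 CPM in sum), and Chodl of satellite cells by 0.74 (1 of 2 tested, 29.2 to 40.2 against 23.0 to 33.3 CPM). The part of other cell types in the levels of the 4 genes was not tested.

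Of the neighbouring genes only Cyp2u1 and Alkbh3 had enough reads to be tested, and neither passed. The others are given as reads alone, some of them too few to compare. Cyp2u1, 15758 bases from Sgms2, had 107 reads in uncontracted and 85 in contracted legs (log2 -0.34 ± 0.22, edgeR adjusted p = 0.437), and Papss1, 73357 bases away on the other side, had 42 and 36. BC006965 starts 248 bases from Sox9 on the opposite strand and had 1 read in each kind of leg, and 2610035D17Rik, 256135 bases away, had 34 and 30. Rtkn2, 32780 bases from Arid5b, had 0 and 4 reads, and Cabcoco1, 152213 bases away, had 2 and 2. Alkbh3, 23349 bases from Gm13889, had 137 and 115 reads (-0.27 ± 0.18, adjusted p = 0.440), and Gm1335, 14932 bases away, had 0 and 2. The annotation also places Gm43116 across Sgms2 and Gm27027 on the same strand as Gm13889, and neither had a read.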

How the data were processed

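Libraries of gastrocnemius RNA were made with a QuantSeq 3' mRNA kit, per the labels' protocols, and the deposited table holds whole-number read counts per gene, which the authors made with STAR 2.5.2a and HTSeq 0.6.0 on mm10, with FastQC 0.11.5 and SAMtools also named, per the submitters' processing notes. The annotation and strand setting are not given in the sources used here, so overlapping and antisense genes cannot be told apart. Of 47643 identifiers 47224 had a symbol and 29772 had no read. CPM is reads divided by a library's total count, times 1000000. The main test was edgeR 4.0.16 quasi-likelihood (TMM, filterByExpr with a minimum count of 10, 4 group means, all 12 libraries) in R 4.3.3, with Benjamini-Hochberg adjustment over 6676 genes and a threshold of 0.05. Standard errors are the log2 value divided by the root of F. Ratio intervals are exact conditional Poisson intervals at 95%, and the floor is 3 reads. Log2 CPM used a prior count of 2.

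Alternatives were DESeq2 1.42.0, other scalings and filters, the animal as a block (limma 3.58.1 for the random block), leaving out each library, and leaving out the 4 contracted libraries with Myc reads against their labels. Leaving out mitochondrial genes was added after seeing the data. Animals are paired by the labels, which give both legs of a mouse 1 number. The deviations of the 2 legs correlated at -0.121 to 0.108 over 6676 genes. Separate animals are biological replicates, with 3 a group. Named genes were the 4 members, for each the 3 most alike with a mean of at least 5 CPM and the nearest gene with reads on each side, genes passing a test in each list (up to 6 by p), and Myc. Genes outside that rule, such as Sox4, Sox6, Phf2 and the marker genes, were named after their values were seen. The members, lists and tests were chosen with earlier results of these data known. Some of the tests were run on simulated data, to check their estimates of fold change only. The changed genes there were not near 0 reads and changed less than the 4 members did with contraction. No effect of animal or label was simulated.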

Additional observations from a re-analysis of the deposited data

Results flagged for a closer look

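Sox9 in the second Myc animal stood apart from the other animals in its difference between legs. The log2 change was 4.40 there, against 3.30 in the next animal, a gap of 0.704 of the whole range, past Dixon's critical value at 95% for 6 animals. This describes the spread between animals and not contraction itself. Of 8 such checks run, at both ends for the 4 genes, 1 was past the value, and chance marks about 1 in 20 groups. The contracted library of this animal is one of the 4 whose Myc reads go against their labels, so the pairing of its legs depends on the label. The uncontracted leg of this animal held 5 Sox9 reads and the contracted leg 158, the highest of the 12 libraries. Its ratio of the legs had an exact interval of 12.2 to 90.9, which overlaps that of every other animal. The part of counting error in the gap was not tested.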

How the results depend on the processing

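The contraction values of the 4 genes, averaged over genotypes, shifted in size when each library was left out. They ran from 3.42 to 3.85 for Sgms2, 3.38 to 3.89 for Sox9, 3.17 to 3.58 for Arid5b and 3.41 to 4.22 for Gm13889. Their sign could hardly turn, since every contracted library lies above every uncontracted one for these genes. Without the mitochondrial genes the values were 3.68, 3.54, 3.39 and 3.63 in the same order. Sgms2 does not pass the stricter filter and has no value there. With the replicate block for the animal, 440 genes were called for mean contraction (499 in both directions without it), 172 in control and 228 in Myc animals, and 0 in the Myc comparisons and interaction. The interaction was then -0.99, 0.35, 0.14 and -0.57 in the order Sgms2, Sox9, Arid5b, Gm13889, and no call of these 4 changed. The block ended that of Arid2.

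Without the 4 contracted libraries 107 genes were called for mean contraction, 67 in control (187 before) and 59 in Myc animals (260 before), and 6 for Myc in uncontracted legs. Mean contraction then stood at 3.12, 2.91, 2.33 and 3.09 in the order Sgms2, Sox9, Arid5b, Gm13889, and contraction in Myc animals at 2.31, 2.55, 2.10 and 2.14, and in control animals Sgms2 stood at 3.93 and Arid5b at 2.56. Myc differences in contracted legs reversed for Sgms2 (-0.14), Sox9 (-0.83) and Gm13889 (-1.17), and interactions for Sox9 (-0.73) and Arid5b (-0.46). With no low-count filter the calls were 305 in control and 433 in Myc animals, 24 and 5 for Myc in uncontracted and contracted legs, and 18 for the interaction. For Myc in uncontracted legs the robust fit called 1 gene, the fit on only those 6 libraries 2, and DESeq2 1. DESeq2 gave Sgms2 4.37 in control animals. The cause of these shifts was not tested.

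Leaving out single libraries gave 349 to 722 calls in mean contraction, 116 to 313 in control animals (without contracted control 3 and 1), 147 to 517 in Myc animals (without contracted Myc 3 and 1), 0 to 2 for Myc in uncontracted legs, 0 in contracted legs and 0 to 4 for the interaction. Ranges in control animals were 3.62 to 4.51 for Sgms2 and 2.86 to 3.54 for Arid5b. In the same order of genes, Myc differences ran from 0.97 to 1.86, -0.82 to 0.18, -0.53 to -0.11 and -0.47 to 1.19 in uncontracted legs, and from 0.32 to 0.84, 0.02 to 0.65, -0.50 to 0.37 and -0.13 to 0.63 in contracted legs, each lowest there without contracted Myc 2. Interactions ran from -1.32 to -0.41, 0.11 to 1.12, -0.24 to 0.63 and -0.92 to 0.74. None of the 4 genes passed a Myc or interaction test in any setting that gave it a value. In the fit on only the 6 uncontracted libraries none of the 4 passed the low-count filter. With 1371732 to 1643216 reads a library, levels under about 2.19 CPM cannot be told from 0.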
